A study of Mus musculus with 8 samples.

Results

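Whole-transcriptome RNA-seq of 4 isogenic mouse mammary tumour cell lines was compared between 2 pairs of lines. One pair was 4T1.2 and 4T1, and the other was 66cl4 and 67NR, which the study describes as sister lines of lower metastatic potential; the labels of the samples spell 66cl4 as 66c14. Each line had 2 biological replicates, so all 8 libraries of the series entered the comparison, 4 on each side. The contrast was the mean of 4T1.2 and 4T1 minus the mean of 66cl4 and 67NR, with 1 mean per line, over the 13924 of 27179 genes that passed the filters. The lines were untreated and grown in α-modified minimal essential medium with fetal calf serum. 4T1.2 is a clone of 4T1, so these lines are not independent of each other, and all 4 lines descend from a single mouse tumour. With lines as the units, 2 against 2 allow 3 pairings and a smallest p of 0.333. The p-values below measure the spread between the replicates of these lines and do not extend to other lines.

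Epithelial cells adhere to each other through E-cadherin, tight junctions and desmosomes, and they hold keratins as their intermediate filaments. A family of transcription repressors, which includes Snai1, Snai2, Zeb1 and Zeb2, is known to bind E-box sequences in the promoters of epithelial genes and to lower their transcription. Tumour lines from the same tissue can differ in these programmes, in the matrix they make and degrade, and in the signals they send to themselves. The question taken here was which such functions, lineage programmes and gene families set the pairs of lines apart, beyond the growth factors and chemokines for which the study compared them.

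Libraries held between 37159840 and 66269681 counts. Levels are given as CPM, counts scaled to the library size. Across genes, the log2 CPM of the replicates of a line correlated at 0.9945 to 0.9963. edgeR's quasi-likelihood test gave an adjusted p under 0.05 for 5308 genes (38.1%) as higher in 4T1.2/4T1 and for 5376 (38.6%) as lower. Past a fitted change of 2-fold these were 2209 (15.9%) and 2233 (16.0%). A gene is called higher or lower throughout below if it passed the test with the same sign in each of the 4 comparisons of a single line of one pair with a single line of the other, which 3040 genes (21.8%) did as higher and 2883 (20.7%) as lower. Of the 4442 genes past 2-fold, 826 did not differ throughout. The median log2 fold change of all genes tested was -0.01, with quartiles of -0.61 and 0.56. Counts of a gene list are read against these shares. A listed gene had to be expressed in some lines to be tested, so genes of a list that passed the filter through one pair of lines alone had to differ, and the counts describe the list and are no test of it. The analysis was of whole cultures, in which fewer cells that express a gene and less RNA of it per cell cannot be told apart.

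Genes of epithelial adhesion had the highest median of all lists. Of 35 listed genes, 22 could be tested, and 15 of these were higher and 3 lower throughout, with a median log2 fold change of 5.39, or 4.97 where genes at 3 counts or fewer in every library of one pair were set to their bound. The summed level of the list was 542 to 889 CPM in the 4T1.2 and 4T1 libraries and 120 to 145 CPM in the others. Epcam (chromosome 17, 87635979 to 87651127, GRCm38), an adhesion molecule of epithelial cells, was at 13.7 and 14.2 CPM in the 4T1.2 libraries and 38.9 and 46.7 CPM in 4T1. It had 1 count in 1 replicate of 67NR and none in the other libraries of 66cl4 and 67NR, which makes it at least 445-fold higher. This and all later folds of this kind are approximate bounds against 3 counts in each library. The claudin Cldn3 of the tight junction was at least 972-fold higher by the same reckoning. E-cadherin itself, Cdh1, was at 11.6 and 11.1 CPM in the 4T1.2 libraries and 38.9 and 38.1 CPM in 4T1, and did not exceed 0.155 CPM in 66cl4 or 67NR. Its log2 fold change was 7.82 (SE 0.18, edgeR's adjusted p = 1.52e-10), and within the higher pair 4T1 stood above 4T1.2 in every library. The membrane protease matriptase, St14, and its inhibitor Spint1 were higher by 8.95 and 9.31 on the log2 scale. The 3 genes that were lower throughout were Llgl2, a polarity protein (log2 fold change -1.27), Bspry and the transcription factor Grhl1 (log2 fold change -4.69).

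Stretches of promoter are shown here because the E-box bound by the repressors of the Snai and Zeb families is a short and readable sequence. The promoter windows, from RefSeq on GRCm38.p6, reach from 250 bases before to 50 bases after a gene's start, and 300 bases in all. The letters CACCTG, or CAGGTG on the other strand, stood in at least one window of 16 of the 21 listed epithelial genes that had a window (76.2%), against 6098 of all 27025 genes with one (22.6%) and 2 of 16 genes of the mesenchymal list described below (12.5%). Of the epithelial genes that were higher throughout, 10 of 11 with a window held the letters, and so did 5 of the 7 whose counts were below the filter in these lines. Of the 2 lower throughout with a window 1 did, and Cgn, tested but not different throughout, did not. Cdh1 had no window here. The stretches below are the 100 bases before the start, 5′ to 3′ on the gene's strand, with the E-box letters in capitals. They come from chr17:87635879-87635978 (+) for Epcam, chr11:69965321-69965420 (+) for the claudin Cldn7, chr5:134946935-134947034 (-) for the claudin Cldn4 and chr7:29281978-29282077 (-) for the protease inhibitor Spint2.
Epcam: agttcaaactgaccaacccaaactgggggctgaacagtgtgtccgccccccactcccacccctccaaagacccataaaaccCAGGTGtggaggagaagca
Cldn7: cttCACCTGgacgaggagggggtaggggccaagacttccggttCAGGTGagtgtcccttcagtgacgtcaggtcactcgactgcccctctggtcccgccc
Cldn4: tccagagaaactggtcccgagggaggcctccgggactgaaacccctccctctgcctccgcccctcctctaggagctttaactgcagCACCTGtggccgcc
Spint2: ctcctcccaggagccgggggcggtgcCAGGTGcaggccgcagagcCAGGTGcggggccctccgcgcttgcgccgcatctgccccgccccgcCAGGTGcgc
Cldn7 carries the letters at 2 places of its stretch and Spint2 at 3. A match is a description of the sequence, and binding was not measured. The level of these genes differed widely, since Spint2 measured 266 and 263 CPM in 4T1.2, 349 and 412 CPM in 4T1 and 58.0 to 75.1 CPM in the other lines, while Cldn7 did not exceed 1.10 CPM in any library. Spint2 had a log2 fold change of 2.29 (SE 0.09, edgeR's adjusted p = 5.32e-09), and Cldn7 and Cldn4 were at least 10.2-fold and 34.9-fold higher.

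The repressors were not all on one side. Snai1 was at 22 and 18.4 CPM in the 4T1.2 libraries and 15.7 and 12.1 CPM in 4T1, with at most 2 counts in a library of 66cl4 or 67NR, and was at least 267-fold higher in the lines that hold E-cadherin. Snai2 was the reverse, with 93.3 and 107 CPM in 66cl4, 73.4 and 68.3 CPM in 67NR and at most 3 counts in a library of the others, at least 1739-fold lower. Zeb1 was at 0.264 to 0.459 CPM in the 4T1.2 and 4T1 libraries and at 60.0 to 65.3 CPM in the others, a log2 fold change of -7.37 (SE 0.11, edgeR's adjusted p = 1.50e-11). Zeb2 had no such separation. It lay at 51.9 to 76.8 CPM across 4T1.2 and 4T1 but at 62.9 to 75.3 CPM in 66cl4 and 67NR, with a log2 fold change of -0.11 (SE 0.08, edgeR's adjusted p = 0.224). Twist2, a helix-loop-helix factor of mesenchyme, was at least 617-fold lower, and Foxc2, a forkhead factor of mesoderm, at least 156-fold higher in 4T1.2/4T1.

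Over the list of 30 mesenchymal genes and transition regulators, of which 28 were tested, 3 were higher and 14 lower throughout, with a median of -1.07. N-cadherin, Cdh2, was at 81.2 to 99.5 CPM in 66cl4 and 67NR and had at most 1 count in any other library, at least 1788-fold lower. The PDGF receptor Pdgfrb (log2 fold change -6.87) and the homeobox factor Prrx1 (-6.43) were lower as well, while fibronectin, Fn1, was lower by a smaller step (-1.22). Vimentin, the intermediate filament protein of mesenchyme, did not follow this direction. Vim measured 4804 and 6100 CPM in 4T1.2, 4743 and 6908 CPM in 4T1, 3539 and 3012 CPM in 66cl4 and 1893 and 2001 CPM in 67NR, and so was higher in the pair that held E-cadherin (log2 fold change 1.16, SE 0.14, edgeR's adjusted p = 2.74e-05). The plot of single genes by library shows these separations beside the genes for which the pairs lie close together.

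**Figure D1:**
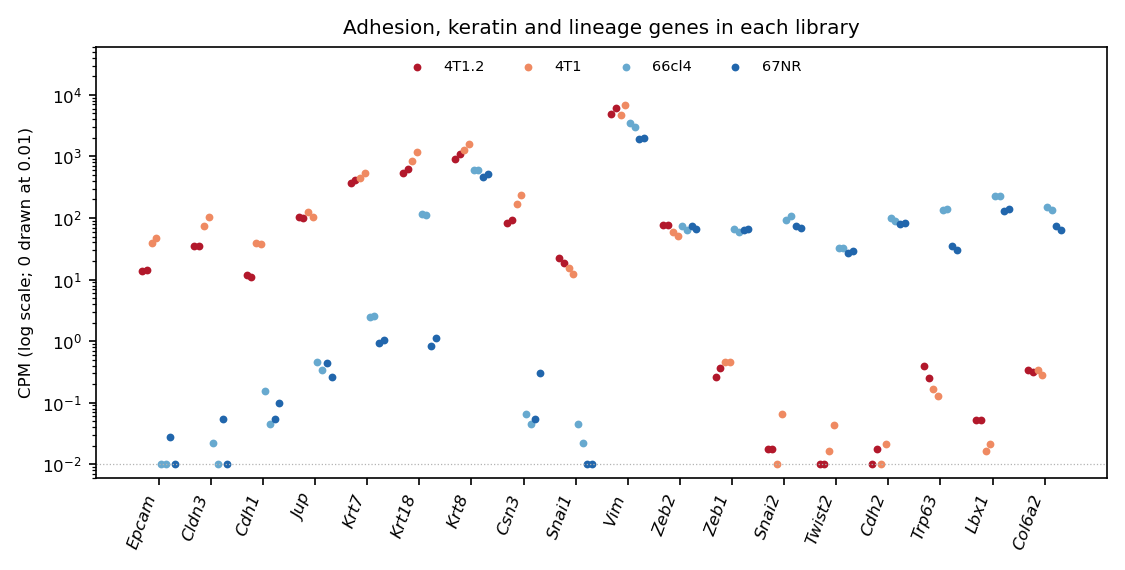
CPM, on a log axis, of 18 adhesion, keratin and lineage genes in each of the 8 libraries, coloured by line, with a value of 0 drawn at 0.01. Epcam, Cldn3, Cdh1, Jup, Krt7, Csn3 and Snai1 lie high in 4T1.2 and 4T1 and near 0 in 66cl4 and 67NR, Zeb1, Snai2, Twist2, Cdh2, Trp63, Lbx1 and Col6a2 show the reverse, and Zeb2, Krt8 and Vim were detected in all lines.

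Keratins and desmosomes went with the epithelial genes. Of 18 listed keratins, 12 were tested, of which 8 were higher and none lower throughout. The median was 3.21, or 2.35 with the genes at 3 counts or fewer at their bound, and the summed level was 1730 to 2908 CPM against 471 to 713 CPM. The pooled contrast called 11 of the 12 higher and none lower by edgeR's test (adjusted p under 0.05). The simple-epithelium keratin Krt7 was at 366 and 420 CPM in the 4T1.2 libraries and 446 and 548 CPM in 4T1, against 0.928 to 2.57 CPM in the others (log2 fold change 8.12, SE 0.12, edgeR's adjusted p = 1.50e-11). Krt18 separated the lines in 3 steps, with 541 and 623 CPM in 4T1.2, 845 and 1200 CPM in 4T1, 115 and 113 CPM in 66cl4 and only 0.819 and 1.14 CPM in 67NR. Krt8, with which Krt18 pairs in a filament, was at 463 to 606 CPM in 66cl4 and 67NR and at 907 to 1602 CPM in the others, a log2 fold change of 1.13. The desmosome list had 13 genes, of which 10 were tested and 7 were higher and none lower throughout (median 4.04, or 3.75 at the bound). Plakoglobin, Jup, which links cadherins to filaments, was at 99.4 to 124 CPM across 4T1.2 and 4T1 but at 0.259 to 0.464 CPM in the others (log2 fold change 8.21, SE 0.14, edgeR's adjusted p = 2.92e-11), and desmoplakin, Dsp, was low everywhere, at 1.01 to 1.5 CPM against at most 0.0663 CPM.

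The tight junction was split between both sides. Of 27 listed genes 26 were tested, with 13 higher and 8 lower throughout and a median of 0.99. Cldn3, Cldn4, Cldn7, occludin (Ocln, 16.6 to 51.3 CPM against 0.290 to 4.58 CPM) and the scaffold Tjp3 were higher in 4T1.2/4T1, whereas Cldn1 was at least 771-fold lower, at 60.0 and 65.0 CPM in 66cl4 and 13.0 and 13.8 CPM in 67NR. Gap junction genes (16 listed, 8 tested) had 4 higher and 2 lower throughout, and integrins (20 listed, 16 tested) 6 and 6. Among the integrins the β3 subunit Itgb3 was at 23.7 to 38.5 CPM across 4T1.2 and 4T1 but at most 0.0893 CPM in the others (log2 fold change 10.27, SE 0.28, edgeR's adjusted p = 4.66e-10). Of the genes of actomyosin contraction (32 listed, 30 tested), 5 were higher and 6 lower throughout with a median of 0.01. The largest of these differences was in a nonmuscle myosin heavy chain, Myh10, at 226 to 365 CPM in 4T1.2 and 4T1 and 0.682 to 1.5 CPM in the others. The 34 genes of the primary cilium were all tested, and 2 were higher and 4 lower throughout, with a median of -0.03.

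**Figure D2:**
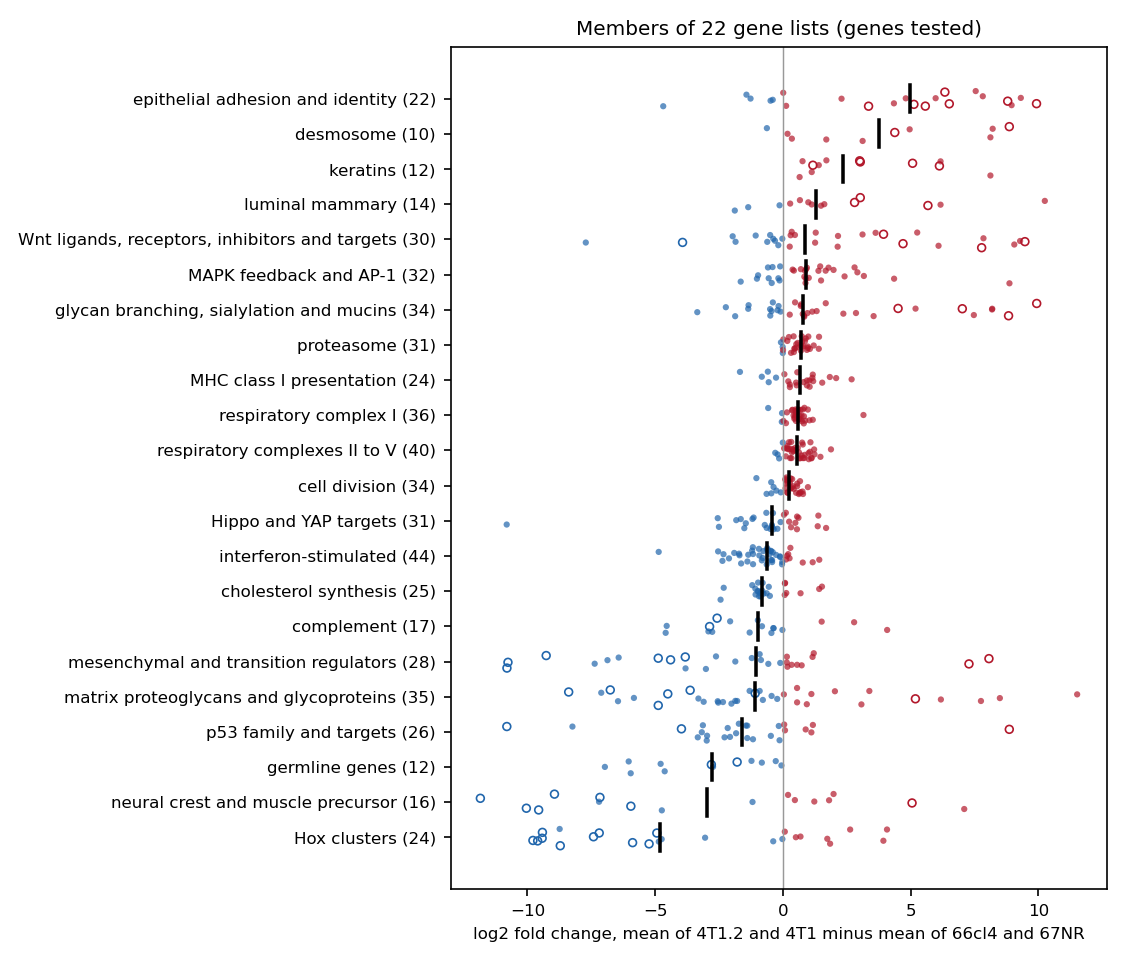
Fitted log2 fold change (mean of 4T1.2 and 4T1 minus mean of 66cl4 and 67NR) of each tested member of 22 gene lists, with open circles for genes at 3 counts or fewer in every library of one pair, drawn at their bound, and a black bar at the median. Epithelial adhesion, desmosome and keratin genes lie mostly to the right of 0 and Hox and germline genes mostly to the left. Respiratory and proteasome genes have medians between 0.54 and 0.70, with members of complex I from -0.58 to 3.15.

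Mammary lineage markers were higher in part in each pair. Of 28 luminal genes 14 were tested, with 9 higher and 1 lower throughout and a median of 1.31. Csn3, which encodes the milk protein κ-casein, was at 84.4 and 94.3 CPM in the 4T1.2 libraries and 172 and 239 CPM in 4T1 and at most 0.308 CPM in the others (log2 fold change 10.25, SE 0.25, edgeR's adjusted p = 2.06e-10). The luminal pioneer factor Foxa1 was at 2.74 to 3.65 CPM with no count in 66cl4 or 67NR, at least 51.1-fold higher. The oestrogen receptor gene Esr1 went the other way, at 5.75 to 10.2 CPM in 4T1.2 and 4T1 and 22.3 to 35.8 CPM in 66cl4 and 67NR. Basal and myoepithelial genes (25 listed, 18 tested) were split, with 6 higher and 5 lower throughout. The p63 gene Trp63, which marks basal cells, was at 137 and 137 CPM in 66cl4, 34.6 and 29.9 CPM in 67NR and at most 0.387 CPM in the others (log2 fold change -8.24, SE 0.13, edgeR's adjusted p = 2.06e-11). In contrast the basal marker Procr was at 78.6 to 103 CPM across 4T1.2 and 4T1 but had at most 4 counts in a library of 66cl4 or 67NR. The growth factor Nrg1 had a log2 fold change of -3.72.

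Transcription factors of lineages outside the mammary gland differed widely in both directions. Of 30 genes of neural crest and muscle precursors, 16 were tested, with 5 higher and 9 lower throughout and a median of -2.97. Lbx1 (chromosome 19, 45232684 to 45236841, GRCm38), a homeobox factor of migrating muscle precursors, was at 226 and 230 CPM in 66cl4 and 130 and 138 CPM in 67NR and had 1 to 3 counts in each library of the others, at least 3678-fold lower. Tbx18 and Msx2, factors of mesenchyme, were at least 756-fold and 143-fold lower. The cofactor Eya2 ran against the list, at 67.5 to 77.0 CPM in 4T1.2 and 4T1 and 0.211 to 1.27 CPM in the others (log2 fold change 7.09), and so did its partner Six4 (1.98). Foxd1, a forkhead factor of kidney stroma, and Fgf10, a growth factor of mammary and limb mesenchyme, were among the genes at 3 counts or fewer in 4T1.2 and 4T1 and were at least 2012-fold and 2170-fold lower. Neuronal and synaptic genes (34 listed, 17 tested) had 6 higher and 6 lower throughout, among them Ncam1, at least 444-fold lower. Cartilage and bone genes (24 listed, 17 tested) had 6 higher and 3 lower throughout, with a median of 0.97. Their summed level went the other way, at 1250 to 1598 CPM in 4T1.2 and 4T1 against 3106 to 5364 CPM in the others.

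Hox genes, whose order along the chromosome follows the body axis, were split by cluster. Of 39 listed genes 24 were tested, with 7 higher and 13 lower throughout and a median of -4.80. The 7 higher genes all lay in the Hoxa cluster, and the 13 lower genes in the Hoxb, Hoxc and Hoxd clusters. Hoxa5 was at 296 to 366 CPM across 4T1.2 and 4T1 but at 19.2 to 23.6 CPM in the others (log2 fold change 3.93, SE 0.09, edgeR's adjusted p = 1.33e-10), and Hoxa2 was higher by 4.07 on the log2 scale. In the Hoxb cluster, Hoxb3, Hoxb4, Hoxb5, Hoxb6, Hoxb8 and Hoxb9 had at most 3 counts in any 4T1.2 or 4T1 library and were at least 146-fold to 884-fold lower. The summed level of the list was none the less higher in 4T1.2 and 4T1 (461 to 495 CPM) than in the others (255 to 420 CPM). Hoxa5, at 296 to 366 CPM on the scale of single genes, made up most of the former sum.

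Of the collagens (31 listed, 27 tested), 6 were higher and 10 lower throughout, with a median of -0.47. Col6a2, a chain of the microfibrillar collagen VI, was at 134 and 151 CPM in 66cl4 and 64.2 and 74.5 CPM in 67NR and at 0.281 to 0.344 CPM in the others (log2 fold change -8.26, SE 0.12, edgeR's adjusted p = 1.50e-11). Col5a2 rested mainly on 66cl4, with 37.0 and 31.2 CPM there, 1.2 and 1.69 CPM in 67NR and at most 2 counts in any other library. The type I chain Col1a1 stayed below 6.53 CPM in all 8 libraries. Matrix proteoglycans and glycoproteins (41 listed, 35 tested) had 8 higher and 14 lower throughout and a median of -1.31, or -1.09 at the bound, and their summed level was 1183 to 1613 CPM against 2574 to 4652 CPM. Prelp, a leucine-rich repeat proteoglycan, was at least 335-fold lower and biglycan, Bgn, at least 108-fold lower. Among the 8 higher members were Efemp2, needed for elastic fibre assembly, at 123 to 170 CPM across 4T1.2 and 4T1 but at most 0.109 CPM in the others (log2 fold change 11.52, SE 0.21, edgeR's adjusted p = 3.29e-11), and the fibulin gene Fbln1, higher by 8.49. Nephronectin, Npnt, an integrin ligand of basement membranes, was at 217 to 510 CPM against 0.580 to 1.72 CPM. Its list of laminins, nidogens and basement membrane genes (20 listed, 15 tested) had 5 higher and 3 lower throughout with a median of 0.55, which turned to -0.19 when 4T1 was left out.

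Several enzymes that degrade the matrix were abundant in 4T1.2/4T1 and rare in 66cl4/67NR. Of the metalloproteinases and their inhibitors (37 listed, 28 tested), 11 were higher and 4 lower throughout, with a median of 0.28 and a summed level of 2875 to 3586 CPM against 1713 to 2360 CPM. Stromelysin-1, Mmp3, measured 1643 and 1724 CPM in 4T1.2, 1322 and 1400 CPM in 4T1, 8.42 and 8.44 CPM in 66cl4 and 12.5 and 12.8 CPM in 67NR (log2 fold change 7.20, SE 0.08, edgeR's adjusted p = 6.71e-12). The gelatinase Mmp9 was at 171 to 216 CPM against 0.223 to 2.43 CPM. The membrane-bound Mmp14 was higher by 1.71. The other gelatinase, Mmp2, which Mmp14 is known to activate, had a log2 fold change of -3.02, and Adamts5, an aggrecanase, was at least 1565-fold lower. The urokinase gene Plau (chromosome 14, 20836662 to 20843388, GRCm38), which converts plasminogen to plasmin, measured 1280 and 1108 CPM in 4T1.2, 744 and 756 CPM in 4T1 and 0.211 to 0.379 CPM in the others, a log2 fold change of 11.53 (SE 0.13, edgeR's adjusted p = 6.71e-12). Its receptor Plaur was read in all lines and was higher by 2.16.

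Among serine protease inhibitors, Serpine2, or protease nexin-1, an inhibitor of thrombin and urokinase, measured 616 and 650 CPM in 4T1.2, 400 and 444 CPM in 4T1 and at most 0.218 CPM in the others (log2 fold change 12.22, SE 0.18, edgeR's adjusted p = 1.66e-11). The whole list of serpins and plasminogen genes (21 listed, 17 tested) had 5 higher and 4 lower throughout, a median of 0.56 and a summed level of 2356 to 3139 CPM against 564 to 837 CPM. Serpinh1, the collagen chaperone HSP47, separated 66cl4 from all other lines. It was at 720 to 894 CPM in 4T1.2 and 4T1, at 278 and 258 CPM in 67NR and at 0.552 and 0.201 CPM in 66cl4, so that the pooled log2 fold change of 6.33 holds unlike steps. Among the lysyl oxidases and collagen-processing enzymes (21 listed, 19 tested; 5 higher and 4 lower throughout, median -0.20), the procollagen protease Bmp1 was higher by 2.88 and the crosslinking enzyme Loxl1 had a log2 fold change of -7.12.

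The most abundant genes that were higher throughout by more than 4-fold were led by Lgals1 (chromosome 15, 78926725 to 78930465, GRCm38), which encodes galectin-1, a secreted β-galactoside-binding lectin. It measured 8349 and 10140 CPM in 4T1.2, 8680 and 11910 CPM in 4T1, 1445 and 1376 CPM in 66cl4 and 1564 and 1482 CPM in 67NR, a log2 fold change of 2.73 (SE 0.12, edgeR's adjusted p = 2.12e-08). Hspa5, the main chaperone of the endoplasmic reticulum, was at 3477 to 3978 CPM against 748 to 863 CPM. On the other side stood osteopontin, Spp1, a phosphoprotein of bone and inflammation, at 599.6 to 949 CPM in 4T1.2 and 4T1 and 2957 to 5466 CPM in the others (log2 fold change -2.30, SE 0.11, edgeR's adjusted p = 3.86e-08). Thrombospondin-1, Thbs1, was at 146 to 349 CPM against 804 to 2103 CPM, and caveolin-1, Cav1, the scaffold of caveolae, at 10.8 to 28.0 CPM against 355 to 468 CPM. The libraries of the pairs did not overlap for these 5 genes, but the rule that chose them, past 4-fold and different throughout, largely set this.

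Among metabolic genes the respiratory chain and the proteasome differed by small steps in many members. All 36 nuclear genes of complex I were tested, of which 17 were higher and none lower throughout, with a median of 0.58 and a range of 0.45 to 0.69 when a single library was left out. The pooled contrast called 30 of them higher and 1 lower by edgeR's test (adjusted p under 0.05), and 3 passed 2-fold. For complexes II to V (42 listed, 40 tested), 21 were higher and none lower throughout, with a median of 0.54. Ndufb9 (chromosome 15, 58933801 to 58939516, GRCm38) stood far from the other subunits, at 715 to 1120 CPM in 4T1.2 and 4T1 and 88.2 to 110 CPM in the others (log2 fold change 3.15, SE 0.11, edgeR's adjusted p = 3.21e-09). Cox6c, of cytochrome c oxidase, was next among the named subunits with 1.88, and Atp5e, of the ATP synthase, had 1.47. Of the 31 proteasome genes, all tested, 22 were higher and none lower throughout, with a median of 0.70 (0.62 to 0.75 with a single library left out) and a summed level of 6511 to 7308 CPM against 4595 to 5589 CPM. Psmb5, a catalytic subunit, was at 71.1 to 105 CPM against 27.9 to 42.9 CPM, whereas Psmd4, a ubiquitin receptor of the same complex, had a log2 fold change of 0.00 (SE 0.08). Replicates differed for these lists: the per-library median of complex I, as log2(CPM + 0.5) minus the mean of the 8 libraries, had values of 0.12 and 0.32 for 4T1.2, 0.09 and 0.53 for 4T1, -0.34 and -0.39 for 66cl4, and -0.25 and -0.07 for 67NR.

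Cholesterol synthesis ran in the opposite direction. Of 26 listed genes 25 were tested, with 2 higher and 15 lower throughout, a median of -0.81 and a summed level of 1363 to 1955 CPM against 2730 to 2933 CPM. Dhcr7 (chromosome 7, 143823167 to 143848410, GRCm38), the last enzyme on the way to cholesterol, measured 35.0 and 37.1 CPM in 4T1.2, 50.9 and 50.6 CPM in 4T1, 291 and 295 CPM in 66cl4 and 189 and 179.9 CPM in 67NR (log2 fold change -2.44, SE 0.06, edgeR's adjusted p = 2.04e-10). The synthase Hmgcs1 (-1.20) and the regulator Srebf2 (-0.86) were lower by smaller steps, and Pmvk (1.42) and Tm7sf2 (1.53) were higher. The list median was -1.17 with 4T1.2 alone and -0.56 with 4T1 alone against the other pair. Glycolysis genes (28 listed, 26 tested) had 9 higher and 2 lower throughout. Their pooled median of 0.49 lay between 0.04 for 4T1.2 against 67NR and 0.86 for 4T1 against 66cl4, and the summed levels of the pairs overlapped (9734 to 17300 CPM against 8083 to 11230 CPM). A high member was the lactate dehydrogenase subunit Ldhb at 14.3 to 24.6 CPM against 0.133 to 0.191 CPM. Fatty acid synthesis had 5 higher and 10 lower of 32 listed, 31 tested (median -0.13), and glutathione and NRF2 genes 2 higher and 8 lower of 42 listed, 38 tested (median -0.15), where Gclc (-1.35), the rate-limiting enzyme of glutathione synthesis, and heme oxygenase, Hmox1 (-2.41), were among the lower genes. Serine, one-carbon and amino acid genes (37 listed and tested) split into 12 higher and 10 lower, iron and heme genes (26 listed, 25 tested) into 2 and 6, and aldehyde and retinoid genes (30 listed, 21 tested) into 6 and 6.

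The p53 family and its targets were the group of growth control with the most lower members. Of 30 listed genes 26 were tested, with 4 higher and 17 lower throughout, a median of -1.59 and a summed level of 1111 to 1213 CPM against 2393 to 4099 CPM. The median lay between -1.64 and -1.53 when a single library was left out. Trp53 itself (chromosome 11, 69580348 to 69591873, GRCm38), the tumour suppressor p53, measured 52.7 and 39.1 CPM in 4T1.2, 49.0 and 38.6 CPM in 4T1, 187 and 218 CPM in 66cl4 and 232 and 241 CPM in 67NR (log2 fold change -2.29, SE 0.11, edgeR's adjusted p = 4.28e-08). The cell-cycle inhibitor Cdkn1a was at 21.2 to 31.1 CPM in 4T1.2 and 4T1, 133 and 159.7 CPM in 66cl4 and 437 and 455 CPM in 67NR, so that the libraries of the pairs did not overlap and 67NR stood highest. Ccng1, a cyclin induced by p53, was at 59.3 to 72.8 CPM against 372 to 824 CPM (log2 fold change -3.13, SE 0.08, edgeR's adjusted p = 2.72e-10). The ligase Mdm2 (-1.17), the RNA-binding protein Zmat3 (-2.98), the death regulators Bax (-1.40) and Fas (-2.16) and the stress gene Sesn2 (-3.15) were lower as well, and the death receptor Eda2r was at least 1794-fold lower. Cdkn2a, which encodes p16 and p19ARF, had no count in 4T1.2 and 4T1 and stayed below 0.885 CPM in the others, so it was at least 15.7-fold lower. Rrm2b, a ribonucleotide reductase subunit, was higher by 1.17.

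Cell division and DNA replication genes differed by small steps. Of 34 division genes, all tested, 8 were higher and 2 lower throughout with a median of 0.25, and of 39 replication genes, all tested, 10 and 2 with a median of 0.27. Over all genes tested 21.8% were higher and 20.7% lower throughout, so the 8 and 10 higher genes lay near that share. At an adjusted p under 0.05 by edgeR's pooled test, by which 38.1% of all genes rose and 38.6% fell, 21 division genes rose against 4 that fell. For replication genes the numbers were 23 and 9. Of those that rose, none and 2 passed 2-fold. Ribosome biogenesis and MYC genes (36 tested of 36) had 3 higher and 5 lower throughout, with Mycn at 18.1 to 31.4 CPM in 66cl4 and 67NR and at most 0.106 CPM in the others. Stress responses were mixed. The unfolded protein response and ATF4 list (30 listed, 29 tested) had 11 higher and 9 lower throughout, with Atf3 (5.84) and Hspa5 (2.21) higher and Sesn2 lower. Heat shock genes (25 tested of 25) had 8 and 6, and lysosome and autophagy genes (41 listed, 40 tested) 8 and 6. Hypoxia response genes (28 listed, 27 tested) had 8 higher and 3 lower throughout. Their pooled median of 0.55 differed by line, at 0.48 for 4T1.2 and 1.01 for 4T1 against 66cl4 but -0.42 and 0.23 against 67NR. The largest change was that of the carbonic anhydrase Car12, at 60.1 to 122 CPM against at most 0.136 CPM.

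Among signalling pathways, the feedback genes of MAP kinase signalling had the most members higher in 4T1.2/4T1. Of 33 genes of MAPK feedback and AP-1, 32 were tested, with 18 higher and 2 lower throughout and a median of 0.89. The ERK phosphatase Dusp6 (chromosome 10, 99263231 to 99267489, GRCm38) measured 564 and 505 CPM in 4T1.2, 464 and 427 CPM in 4T1, 76.8 and 90.2 CPM in 66cl4 and 104 and 97.8 CPM in 67NR (log2 fold change 2.41, SE 0.08, edgeR's adjusted p = 1.57e-09). The factor Etv4 was at 232 to 292 CPM against 31.9 to 38.5 CPM, and the inhibitor Spry4 at 27.0 to 46.8 CPM against 6.67 to 12.2 CPM. The AP-1 subunits were divided, as Fosb (2.80) and Jun (0.84) were higher while Junb (-0.97) and Fosl2 (-1.65) were lower. Receptor tyrosine kinases (38 listed, 22 tested) had 8 higher and 2 lower throughout, with Fgfr2 at 73.6 to 143 CPM against 46.0 to 51.5 CPM and Pdgfrb lower, as given above.

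Most Wnt genes that differed throughout were higher in 4T1.2/4T1, several ligands among them. Of 47 listed genes 30 were tested, with 14 higher and 3 lower throughout and a median of 0.86. The ligand Wnt7b (chromosome 15, 85535437 to 85581821, GRCm38) measured 329 and 355 CPM in 4T1.2, 265 and 275 CPM in 4T1, 18.9 and 17.7 CPM in 66cl4 and 67.0 and 67.8 CPM in 67NR (log2 fold change 3.11, SE 0.06, edgeR's adjusted p = 7.30e-11). Wnt6 was at 37.6 to 76.6 CPM against at most 0.287 CPM, and Wnt10a at 46.5 to 57.2 CPM against 2.37 to 6.50 CPM. The R-spondin receptor Lgr6 (9.28) was higher, and the secreted inhibitor Sfrp1 was at least 709-fold higher. Axin2, a feedback target of β-catenin signalling, moved against the ligands, at 2.89 to 8.62 CPM in 66cl4 and 67NR and at most 0.106 CPM in 4T1.2 and 4T1 (log2 fold change -7.72, SE 0.38, edgeR's adjusted p = 3.87e-08). Hedgehog genes (18 listed, 15 tested) had 3 higher and 5 lower throughout. The ligand Dhh was at 25.7 to 36.3 CPM in 4T1.2 and 4T1 with at most 4 counts in any other library, and the ligand-binding Hhip at 51.5 to 119 CPM against at most 0.287 CPM. The coreceptors were on the other side, with Gas1 at 276 to 445 CPM in 66cl4 and 67NR and at most 0.282 CPM in the others, and Boc at 76.6 to 91.6 CPM and 2.59 to 8.89 CPM in the same order. Ptch1, the receptor and a target of the pathway, had a log2 fold change of -2.18.

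Of the genes of the Hippo pathway and targets of its effector YAP, more were lower than higher in 4T1.2/4T1. Of 32 listed genes 31 were tested, with 5 higher and 13 lower throughout, a median of -0.42 and a summed level of 3496 to 4429 CPM against 5457 to 8325 CPM. Ccn1, a matricellular protein, measured 312 and 238 CPM in 4T1.2, 193 and 194 CPM in 4T1, 1591 and 1802 CPM in 66cl4 and 1085 and 1075 CPM in 67NR (log2 fold change -2.55, SE 0.10, edgeR's adjusted p = 4.92e-09). The TEAD cofactor Vgll3 was at 75.5 to 110 CPM in 66cl4 and 67NR and at most 0.247 CPM in the others, while Amotl1, a junctional scaffold that binds YAP, was higher by 1.69. TGF-β and BMP genes (49 listed, 43 tested) had 10 higher and 13 lower throughout, among them the BMP antagonist Grem1, at least 925-fold lower, the activin antagonist Fst (-3.95), the ligand Bmp7 (9.83) and the BMP target Id1 (-1.91). Notch genes (31 listed, 25 tested) had 7 higher and 4 lower throughout, Eph receptors and ephrins (20 listed, 16 tested) 3 and 6, semaphorins and plexins (31 listed, 30 tested) 9 and 10, prostaglandin genes (19 listed, 14 tested) 3 and 1, and potassium and calcium channels (48 listed, 28 tested) 12 and 7. Of the channels, the potassium channel Kcnk5 was at 53.1 to 155 CPM against at most 0.136 CPM, and Kcnj2 at least 664-fold lower.

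Most genes of antigen presentation by MHC class I that differed throughout were higher in 4T1.2/4T1. All 24 class I genes were tested, with 10 higher and 1 lower throughout, a median of 0.68 and a summed level of 5814 to 6492 CPM against 3880 to 4211 CPM. The light chain B2m measured 1441 and 1672 CPM in 4T1.2, 1258 and 1578 CPM in 4T1, 641 and 586 CPM in 66cl4 and 874 and 817 CPM in 67NR (log2 fold change 1.04, SE 0.09, edgeR's adjusted p = 3.73e-06). The nonclassical H2-T23 was higher by 1.83. H2-Q7 was higher by 2.69, although its reads may be shared with near-identical Q-region genes. The peptide transporter Tap1 was the one that was lower, at 20.6 to 26.4 CPM against 64.9 to 98.7 CPM.

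The 44 interferon-stimulated genes, all tested, had 4 called higher and 31 called lower in the pooled contrast by edgeR's test (adjusted p under 0.05), but 1 higher and 4 lower throughout. The median of -0.62 rested on 66cl4, since it was -1.53 for 4T1.2 and -1.75 for 4T1 against 66cl4, but 0.56 and 0.27 against 67NR, and the pooled median became 0.38 when 66cl4 was left out. Oas2 (chromosome 5, 120730333 to 120749886, GRCm38), a sensor of double-stranded RNA, was at 57.1 and 34.2 CPM in 66cl4, 2.67 and 2.12 CPM in 67NR and 0.216 to 0.652 CPM in 4T1.2 and 4T1, and was one of the 4 genes that were lower throughout. Ifit3 was at 44.9 and 27.2 CPM in 66cl4 and at 1.03 to 3.36 CPM in the 6 libraries of the other 3 lines, whose ranges overlapped. Complement genes (29 listed, 17 tested) had 3 higher and 5 lower throughout with a median of -0.98, which was 0.00 for each of 4T1.2 and 4T1 against 67NR. The serine protease C1s1 of the classical pathway was at 1.98 to 7.45 CPM against 84.2 to 107 CPM, and clusterin, Clu, at 449 to 558 CPM against 42.5 to 134 CPM. The NF-κB response (33 listed, 32 tested) had 10 higher and 6 lower throughout, with the adhesion molecules Vcam1 (3.20) and Icam1 (5.16) among the higher genes, and innate sensors (32 listed, 27 tested) had 6 and 7.

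**Figure D3:**
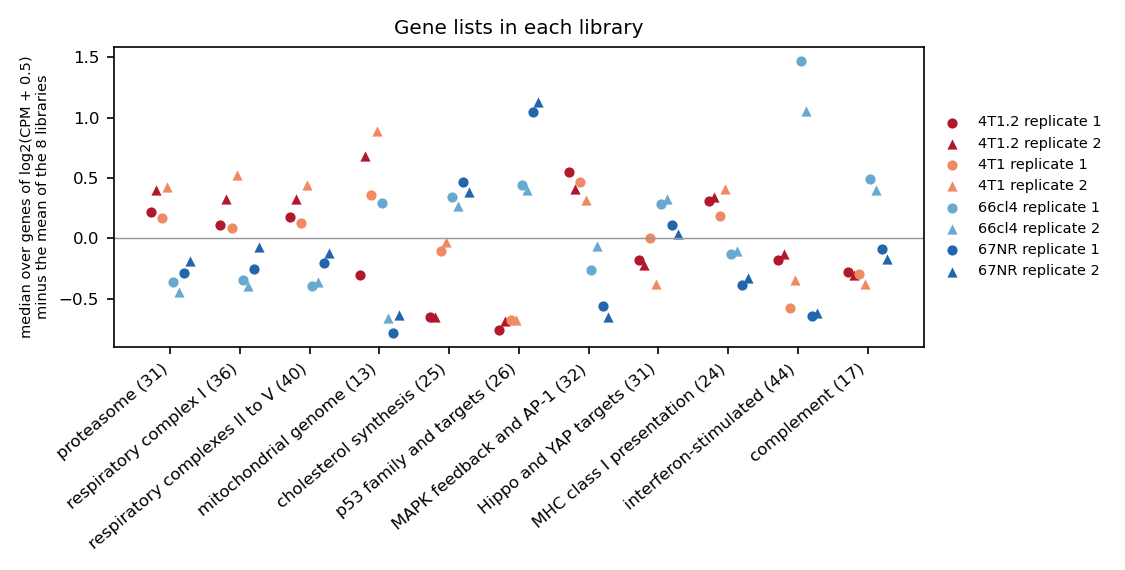
Median over the tested genes of 11 lists of log2(CPM + 0.5) minus the gene's mean over the 8 libraries, with 1 point for each library, circles for replicate 1 and triangles for replicate 2 and a colour for each line. The 4T1.2 and 4T1 libraries lie above the others for the proteasome and below them for cholesterol synthesis and p53 targets, interferon-stimulated genes are high in the 2 libraries of 66cl4 alone, and replicates of a line lie far apart for the genes of the mitochondrial genome.

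Among enzymes that build sugar chains, more were higher than lower in 4T1.2/4T1. Of 44 genes of glycan branching, sialylation and mucins, 34 were tested, with 18 higher and 4 lower throughout and a median of 0.80. Galnt3 and Galnt12, which start O-linked chains, were at least 976-fold and 455-fold higher. Mgat3, which adds the bisecting residue of N-glycans, was at 102 to 129 CPM against 0.335 to 0.454 CPM (log2 fold change 8.18, SE 0.09, edgeR's adjusted p = 6.71e-12). The sialyltransferase St3gal5, which makes the ganglioside GM3, was at 31.0 to 49.8 CPM against 121 to 295 CPM. Heparan and chondroitin sulphate genes (45 listed, 36 tested) had 11 higher and 9 lower, with heparanase, Hpse, higher by 7.80 and the sulphatase Sulf1 at least 20.9-fold lower.

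The germline genes that differed throughout were all lower in 4T1.2/4T1. Of 34 listed only 12 could be tested, with none higher and 7 lower throughout, a median of -4.32, or -2.77 at the bound, and a summed level of 7.20 to 10.6 CPM against 187 to 635 CPM. Rhox5, an X-linked homeobox gene of the reproductive tract, made up most of the sum in 67NR only. Its level was 0.634 and 0.847 CPM in 4T1.2, 3.08 and 4.12 CPM in 4T1, 80.2 and 78.0 CPM in 66cl4 and 518 and 537 CPM in 67NR (log2 fold change -6.97, SE 0.12, edgeR's adjusted p = 2.26e-11). The Xlr3 genes of the list are near-identical copies whose counts may be split, and Xlr3b was at 0.106 to 0.345 CPM in 4T1.2 and 4T1 and 11.2 to 14.3 CPM in 66cl4 and 67NR. DNA methylation and Polycomb genes (31 listed, 30 tested) had 9 higher and 5 lower throughout and a median of -0.01, with the methyltransferase Dnmt3b at 3.43 to 6.16 CPM across 4T1.2 and 4T1 but at most 3 counts in any other library. Imprinted genes (38 listed, 18 tested) had 5 higher and 4 lower, and clock genes (22 listed, 20 tested) 5 and 8, with Dbp (-3.58) and Per2 (-2.88) among the lower.

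Grouping all tested genes by the letters that begin their symbol gave 162 stems with at least 10 genes, and the stems at both ends of the order of medians were taken. The highest medians belonged to Mmp (3.43, 14 genes), Wnt (3.37, 10 genes), Krt (3.21, or 2.35 at the bound, 16 genes), Cdh (1.43, 10 genes) and Pde (1.10, 16 genes). Of these the Mmp genes had 9 higher and 1 lower throughout, the Krt genes 10 and none and the Wnt genes 6 and none. The lowest medians were those of Vmn, Serpina, Pcdhb, Gbp and Snhg. The Vmn genes (-6.60, or -2.77 at the bound, 11 genes) and the Serpina genes (-4.37, or -3.57 at the bound, 12 genes) include near-identical copies, whose counts may be split. All 21 protocadherins of the Pcdhb cluster had negative values, with a median of -3.27, 14 lower and none higher throughout, and a range of -6.68 to -0.47. These cell adhesion genes share much sequence, so single members are uncertain, and Pcdhb16 stood at 0.755 to 1.11 CPM against 6.85 to 15.1 CPM. Guanylate-binding proteins, the Gbp genes, had 10 of 11 lower in the pooled contrast but 2 throughout, as Gbp4 was at 125 and 115 CPM in 66cl4 and at 32.5 and 30.9 CPM in 67NR, close to the 30.6 and 35.4 CPM of 4T1. Host genes of small nucleolar RNAs, the Snhg genes, had 10 of 15 lower and none higher throughout with a median of -1.61, and Snord (46 genes, -1.34) and Snora (29 genes, -1.20) genes, many of which lie within such hosts, had 16 lower each throughout, with none and 1 higher. Reads at Snord and Snora genes may come from RNA of their hosts, so these counts are no measure of the mature small RNAs. The zinc finger genes Zfp, the largest stem with 364 genes, had 38 higher and 110 lower throughout and a median of -0.29.

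Genes read in one pair and near absent from the other were counted at no more than 3 counts in each of 4 libraries and at least 5 CPM in each of the other 4. In this way 103 genes were read in 4T1.2 and 4T1 alone and 98 in 66cl4 and 67NR alone. Ckap4, a membrane protein of the endoplasmic reticulum, was at least 2043-fold higher, Rnf130, a ubiquitin ligase, at least 1977-fold, and Cyba, the p22phox subunit of NADPH oxidase, at least 1416-fold. On the other side, the branched-chain aminotransferase Bcat1 was at least 1027-fold lower. Within 1 Mb of another such gene of the same direction lay 20 of the 103 genes, in 9 clusters, and 26 of the 98, in 10 clusters, of which the largest held 7 Hoxb genes. The share of other expressed genes with such neighbours was not counted, so these numbers are no measure of clustering. Some neighbours overlap, as Six3 with Six3os1 and Cfap74 with 5830444B04Rik, and may share reads.

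Runs of neighbouring genes were also counted without asking that they be silent in one pair. Among 10741 genes at 5 CPM or more, 2376 differed throughout by more than 2-fold, and runs of at least 4 consecutive genes of one sign numbered 45, with 25 higher and 20 lower in 4T1.2/4T1, and held 229 genes. Some runs did consist of genes near 0 in one pair, such as the Hoxb genes described above. The longest run had 17 genes, on chromosome 15 from 78597047 to 79328385 (GRCm38), and contained Lgals1. Its median log2 fold change was 2.17. The 40 other genes within 2 Mb of Lgals1 ranged from -2.89 to 10.55 with a median of -0.09. A run takes only genes past 2-fold of one sign, so the medians of runs and this contrast were set in part by the rule. The run holds genes of unlike function, such as the translation factor Eif3l (242 to 309 CPM in 66cl4 and 67NR, 854 to 1056 CPM in the others) and Micall1, a protein of recycling endosomes (log2 fold change 1.62). Further along the same chromosome toward its start, 6 genes from Derl1 to Wdyhv1 (57869502 to 58158654) had a median of 1.92, and Rnf139, Tatdn1, Ndufb9 and Mtss1 (58889229 to 59083956) a median of 2.11. A run of 13 lower genes on chromosome 19 (43663801 to 44407709, median -1.67) held the stearoyl-CoA desaturases Scd1, Scd2 and Scd3, and 4 higher genes on chromosome 9 were the metalloproteinases Mmp13, Mmp3, Mmp1a and Mmp10. These runs were looked for after the values had been seen, no test was made of their number, and DNA was not measured.

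**Figure D4:**
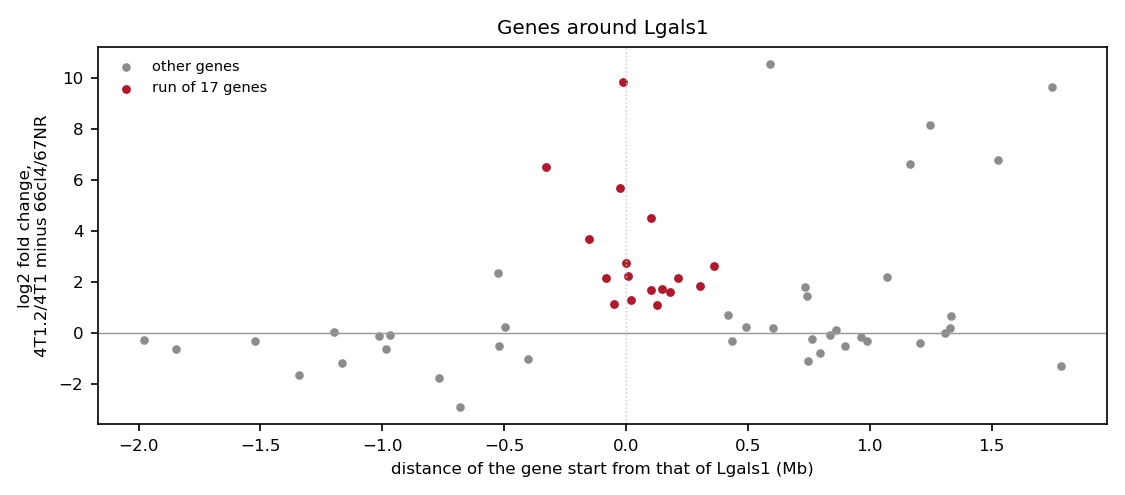
Fitted log2 fold change of the 57 genes at 5 CPM or more in at least 1 line and within 2 Mb of the start of Lgals1, against the distance of their start from it in Mb, with the 17 genes of the run in red and the 40 others in grey. All genes of the run lie above 1, as the rule for a run asked, between 1.13 and 9.86. The others lie on both sides of 0, from -2.89 to 10.55, with a median of -0.09.

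Markers of other cell types were mostly at or near 0. Of 14 leucocyte markers 4 passed the filter, with a summed level of the list of 7.91 to 11.9 CPM in 4T1.2 and 4T1 and 18.9 to 25.6 CPM in the others. Cd3e, Ms4a1, Adgre1, S100a9 and Cd2 had no count in any library. The myeloid lysozyme Lyz2 was at 17.6 to 22.7 CPM in 66cl4 and 67NR and at most 0.0704 CPM in 4T1.2 and 4T1, and the calgranulin S100a8 was at 3.36 to 9.40 CPM across 4T1.2 and 4T1 but at most 0.300 CPM in the others. Of 10 endothelial markers 4 passed, at 1.73 to 9.31 CPM in sum against 0.458 to 0.828 CPM, and in 4T1 this was mostly the receptor Tie1, at 0.546 and 0.882 CPM in 4T1.2 and 6.06 and 7.25 CPM in 4T1. Adipocyte markers (16.9 to 19 CPM against 11.5 to 23.5 CPM) and erythroid markers (1.32 to 1.6 CPM against 0.715 to 2.10 CPM) had overlapping sums. The part of other cells in the results above was not tested.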

How the data were processed

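RNA was extracted from the 4 lines, with 2 biological replicates of each, and made into TruSeq RNA v2 libraries. Alignment (Rsubread, mm10) and counting per Entrez gene (featureCounts) were done by the authors, and the deposited values are raw counts per gene. Whether counting used strand is not given in the sources used here, so a gene and one on the other strand that overlaps it may share reads. The table of the series equals the files of the samples in every cell, and no column of values was left unused.

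Of 27179 identifiers, 25275 (93%) had an entry in a RefSeq table of GRCm38. edgeR's filterByExpr kept 15269 genes at its default settings, and removal of ribosomal genes, predicted genes and those with no entry, as in the study's methods, left 13924. In the whole table, 1904 identifiers had no entry, 1785 were predicted genes and 158 were ribosomal, and the genes left out held 5.34% to 7.94% of a library's counts. Tests were edgeR's quasi-likelihood tests (R 4.3.3, edgeR 4.0.16 with limma 3.58.1) after scaling by TMM (factors 0.9224 to 1.067), with a mean for each line, 4 residual degrees of freedom and Benjamini-Hochberg adjustment over all genes tested, with a threshold of 0.05. The biological coefficient of variation was 9.74%. CPM of single genes use the TMM effective library size of the genes tested, and summed levels of lists use all counts of the library without TMM. Fitted log2 fold changes use a prior count of 0.125, and SE are derived from the F statistic and approximate. Where every library of a pair had at most 3 counts, a fold is a bound against 3 counts in each library of that pair and covers counting error only. In these bounds the 3 counts were scaled to all counts of the library and the other pair to the TMM effective size. The folds given as at least a value are therefore approximate and somewhat too large, more so for genes lower in 4T1.2/4T1. No replicates agreed within counting noise, with a chi-square of 10.3 to 75.4 per degree of freedom. On simulated counts of 13924 genes with 200 changed, the pooled test recovered 45 of 50 changed by 1.5-fold and 50 of 50 changed by each of 2-fold, 4-fold and 8-fold. It made 7 false calls among the unchanged genes. The simulated libraries were independent and few genes changed. In the data most genes were called and replicates of some lines shared deviations, so this number does not give the error of the calls.

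The 66 lists (62 of functions, lineages and families and 4 of markers of other cell types, 1871 genes in all, 1529 of them tested), the comparison and the alternatives were chosen with earlier results of these data known. Named by rule were, for each list and direction, the 2 members with the largest change that differed throughout and reached 5 CPM, the 12 most abundant genes per direction past 4-fold, the 6 most abundant genes per direction at 3 counts or fewer in one pair, and the markers. All other genes, including Cdh1, Zeb1, Zeb2, Vim, Krt8, Foxa1, Trp53, Cdkn1a, Mdm2, Dusp6, Etv4, Wnt6, Wnt7b, B2m, Spint2, Psmd4 and those of the runs of neighbours and symbol stems, were named after their values were seen. Some genes are not reported here. Figures were drawn with matplotlib 3.10.9 (Python 3.11.15, pandas 2.3.3). Alternatives were DESeq2's size factors, DESeq2 1.42.0's Wald test, no filter on low counts, no removal by annotation, robust estimation, the newer quasi-likelihood fit, a test against a 2-fold change, a replicate block, each library or line left out, and other levels for genes absent from one pair.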

Additional observations from a re-analysis of the deposited data

How the results depend on the processing

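The numbers of genes called stayed within 1.5 times the reported ones under every alternative run: 10684 in the pooled contrast (9912 to 10791 with a library left out), 4442 past 2-fold (4347 to 4577) and 5923 throughout (5110 to 6046). DESeq2's Wald test gave 10571, 4401 and 5831, and a test against 2-fold itself left 3622. Without removal by annotation the counts were 11473, 4910 and 6280. With 1 library left out, the lone sample of its line is assumed to vary like those of the other lines. The replicate block gave 10797, 4441 and 6076. Replicate numbers were not taken to pair the samples, since not every pair of lines had a correlation over 0.1. Deviations of replicate 1 correlated at 0.68 between 4T1.2 and 4T1, at 0.28 and 0.17 between these and 67NR, at -0.08 between 66cl4 and 67NR and at -0.16 and -0.32 between 66cl4 and the first pair (9508 genes), so that 4T1.2, 4T1 and 67NR shared deviations by number and the fit without the block treats these as independent. The 201 genes absent from one pair became 374 at 1 CPM (216 in 4T1.2/4T1, 158 in 66cl4/67NR) and 61 at 20 CPM (25 and 36). Of the list medians under alternatives, 608 moved by less than the spread between replicates, 382 by more, and of those past 0.5 in size 2 reversed: laminins, nidogens and basement membrane from 0.55 to -0.19 without 4T1, and interferon-stimulated genes from -0.62 to 0.38 without 66cl4. Of the fold changes of named genes under alternatives, 5029 kept their direction and call and 11 did not. Those of Zeb2 were 0.13 without 4T1 and -0.34 without 4T1.2 (edgeR's adjusted p = 0.00858), and that of Ifit3 was -0.21 without 66cl4 (adjusted p = 0.524). That of Psmd4, near 0, was -0.0028 with the replicate block, -0.13 without 4T1, -0.34 without 66cl4 and 0.34 without 67NR, and ranged from -0.087 to 0.083 with a library left out. Depth limits genes below about 1 CPM, for which fitted changes depend on few counts.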

Other observations

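The genes of the mitochondrial genome, a group added after the values were seen, were counted beside the nuclear subunits. All 13 protein-coding genes were tested, with a median log2 fold change of 0.95 (0.36 to 1.41), 9 higher at an adjusted p under 0.05 by edgeR's test and 2 higher throughout. The sum of their CPM, on the scale of single genes, was 32020 and 61920 for 4T1.2, 49260 and 67550 for 4T1, 48720 and 24830 for 66cl4, and 27090 and 30040 for 67NR. The libraries of the pairs overlapped, and replicates of 4T1.2 and of 66cl4 lay further apart than the means of the pairs.

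The pooled contrast held genes that differed from 66cl4 and from 67NR by unlike steps. Among those higher past 2-fold, 456 differed from 67NR by over 2-fold more than from 66cl4 and 460 the reverse, and among those lower the numbers were 388 and 441. These numbers include genes near 0 in both lines, where a single count can make the gap. Mmp1a, with no count in 66cl4 and 1 in 67NR, had log2 fold changes of 11.79 and 9.42 for 4T1.2 against these lines.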
